A study of Rattus norvegicus with 25 samples.

Results

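The osteocyte and phosphate-regulating genes described here are Dmp1, Phex, Mepe, Sost, Fgf23, Pdpn, Irx5 and Ptprz1, 8 of the 16881 gene symbols in the deposited count tables. They were chosen by name, each had 1 entry in every table, and their read counts are described in all 25 libraries. The libraries came from tooth and periodontal ligament of Sprague–Dawley rats whose upper first molar had been extracted, left dry and put back. Molars replanted at once (IR) were dry for 5 min and those replanted with delay (DR) for 60 min, and the tissue was collected on day 3 or day 7 after replantation. The 4 replanted groups (IR day 3, DR day 3, IR day 7 and DR day 7) held 6 libraries each, and 1 further library, NT, is labelled as the control in both its treatment and its time. Every sample, NT included, carries the same age label, postnatal day 21, without saying whether that was the age at surgery or at collection. Since no label ties a library to an animal of its own, the p-values measure the spread between libraries, which may be technical. In bulk tissue, fewer cells of a type and less RNA per cell cannot be told apart.

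Osteocytes are osteoblasts that have become buried in the bone matrix they made, and cementocytes are their counterparts in the cellular cementum of the tooth root. Early osteocytes make podoplanin (Pdpn), the matrix phosphoproteins DMP1 and MEPE and the membrane endopeptidase PHEX, while mature osteocytes are the main source of sclerostin (Sost), which blocks Wnt signalling in osteoblasts, and of FGF23, the hormone that makes the kidney excrete phosphate. Loss of PHEX or DMP1 raises FGF23 and causes hypophosphatemic rickets, and PHEX degrades mineral-binding peptides released from MEPE. Dmp1 and Phex are also active in odontoblasts, and Dmp1 and Mepe lie in 1 cluster of secreted calcium-binding phosphoprotein genes with Spp1, Ibsp and Dspp. Ptprz1 encodes a receptor tyrosine phosphatase that binds pleiotrophin and midkine, and Irx5 is an Iroquois homeobox factor that acts in craniofacial bone.

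Library totals ran from 5.04 to 8.81 M counts in the replanted libraries and reached 8.55 M in NT. Libraries differed beyond their group labels at day 3. The summed level of 5 genes of lipid-secreting glands ran from 13 to 30300 CPM (counts relative to the scaled library total) in IR day 3 and from 53.1 to 23000 in DR day 3, against 11.3 to 50.6 in IR day 7, 12.1 to 4130 in DR day 7 and 46.2 in NT. Genes of nasal and salivary glands reached 148000 CPM in IR day 3. IR day 3 replicate 6 and DR day 3 replicates 1, 2 and 3 held the 4 highest lipid-gland sums. Markers of the labelled tissue were present, with a summed level of 5 periodontal ligament genes of 2950 CPM in NT and of 11.4 to 1270 in the replanted libraries. Markers of odontoblasts and pulp summed to 1230 CPM in NT and to only 2.95 to 124 in the replanted libraries, and Dspp, the defining odontoblast gene, stood at 1070 CPM in NT and at 0 to 37.6 in the others.

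The regulatory stretch of Mepe is shown beside those of Ibsp, its next gene on the chromosome, and of Bglap, the osteocalcin gene of osteoblasts, 1 of the 3 genes whose level followed that of Phex most closely. Each run is the 250 bases before to 50 after the annotated start site from RefSeq (GRCr8), minus strand, at chr14:5736809-5737108 for Mepe, chr14:5757193-5757492 for Ibsp and chr2:176137269-176137568 for Bglap. Capitals mark, on either strand, the TATA box TATAAA, the RUNX core TGTGGT, the homeobox core TAATTA and the GC box GGGCGG, none of which overlap here.
Mepe: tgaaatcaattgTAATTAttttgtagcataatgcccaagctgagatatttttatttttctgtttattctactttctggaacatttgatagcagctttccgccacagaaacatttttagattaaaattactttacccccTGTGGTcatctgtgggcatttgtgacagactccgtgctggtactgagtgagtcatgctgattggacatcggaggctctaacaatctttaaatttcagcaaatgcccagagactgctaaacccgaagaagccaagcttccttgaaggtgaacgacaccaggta
Ibsp: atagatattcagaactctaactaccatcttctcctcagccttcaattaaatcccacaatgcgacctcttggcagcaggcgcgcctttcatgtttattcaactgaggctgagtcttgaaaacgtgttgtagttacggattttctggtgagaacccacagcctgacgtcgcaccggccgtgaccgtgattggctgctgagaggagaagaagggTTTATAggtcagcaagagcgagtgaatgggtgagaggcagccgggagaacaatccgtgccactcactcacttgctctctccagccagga
Bglap: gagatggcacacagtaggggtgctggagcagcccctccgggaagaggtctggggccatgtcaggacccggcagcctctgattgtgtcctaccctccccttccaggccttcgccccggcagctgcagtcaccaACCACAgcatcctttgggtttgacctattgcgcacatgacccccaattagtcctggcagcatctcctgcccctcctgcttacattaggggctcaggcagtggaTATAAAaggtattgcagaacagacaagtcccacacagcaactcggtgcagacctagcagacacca
Mepe held 1 homeobox core at position -238 and 1 RUNX core at position -112 from the start site, and no TATA box. Ibsp held a TATA box at position -39 and Bglap had one at -15 together with a RUNX core at -118. Over 33469 rat windows of the same 300 bases, 14.2% held the TATA box, 17.3% the RUNX core, 5.36% the homeobox core and 33.1% the GC box. A match is a description of the letters only. The windows listed for Dmp1 and Pdpn did not begin at the annotated end of the gene and are not printed, and Sost, with no count in any library, is left to its name.

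Of the 8 genes, Dmp1 was the most abundant, Phex, Pdpn and Mepe came next, Ptprz1 and Irx5 were low, and Sost and Fgf23 were not detected. Counts here come from the 3′ ends of transcripts, so a level does not grow with transcript length. CPM can be set side by side between genes only as far as the annotation covers their 3′ ends alike, which was not examined. The 6 detected members could be tested, and at an adjusted p under 0.05 (edgeR's quasi-likelihood test, Benjamini-Hochberg over 11492 genes) 1 call was made for them in 6 contrasts. Phex rose from day 3 to day 7 when IR and DR were averaged.

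**Figure D1:**
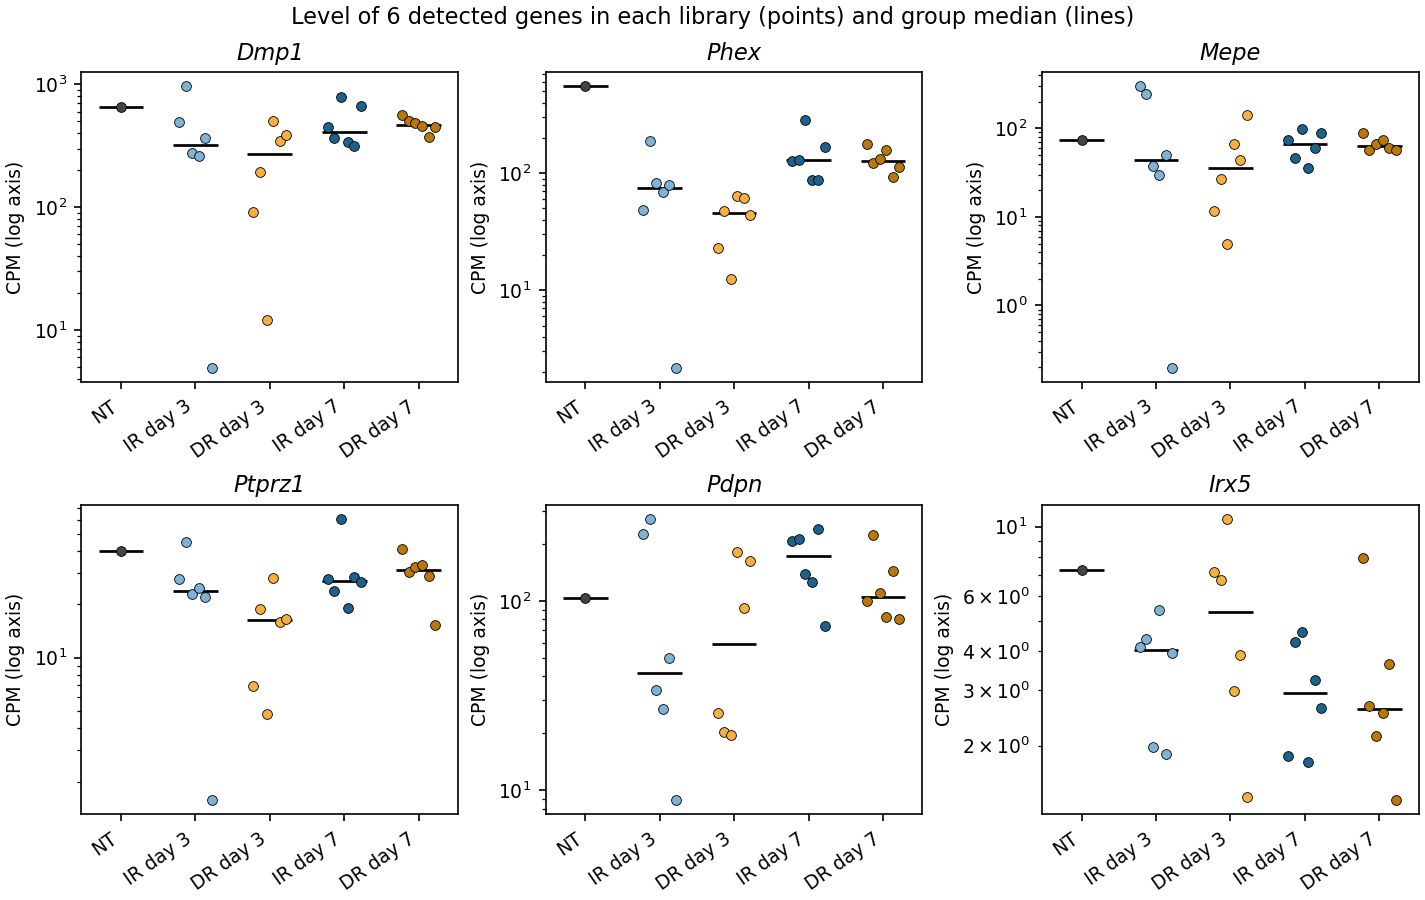
Level of the 6 detected genes (CPM, log axis) in each library by group, with points for libraries and lines for group medians. Phex in NT, at 552 CPM, lies above all 24 replanted libraries, and IR day 3 replicate 6 is the lowest point for Dmp1, Phex, Mepe, Ptprz1 and Pdpn.

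Phex, the endopeptidase whose loss causes X-linked hypophosphatemia, stood at 552 CPM in NT. Its level ran from 2.17 through a median of 74.7 to 190 CPM in IR day 3 and from 12.4 through 45.7 to 63.8 CPM in DR day 3. At day 7 it ran from 86.7 through 128 to 284 CPM in IR and from 93.7 through 128 to 179 CPM in DR. Every DR day 7 library lay above every DR day 3 library, which was so for 1.76% of the genes tested. In IR the days overlapped, because IR day 3 replicate 2 at 190 CPM exceeded all but 1 of the IR day 7 libraries; 0.679% of genes showed no such overlap in IR. By group mean the order was NT, IR day 7, DR day 7, IR day 3 and DR day 3, and the ranges of neighbouring replanted groups overlapped.

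The change of Phex from day 3 to day 7, as the mean of IR and DR, was 1.28 on the log2 scale (SE 0.389, 95% interval 0.47 to 2.08, edgeR adjusted p = 0.0275). In that contrast 18.8% of all genes were called, 6.94% as higher at day 7, so 1 call among 6 members is near the background. Of all calls 37% were higher at day 7, or 53.7% when libraries were scaled by total counts alone. The same contrast gave 1.70 (SE 0.557, edgeR adjusted p = 0.103) in DR and 0.86 (SE 0.546, edgeR adjusted p = 0.37) in IR, where 0.0087% and 0.139% of genes were called. The difference between these time effects, tested as the interaction, was 0.85 (SE 0.768, edgeR adjusted p = 1). DESeq2 called the rise in DR (1.72, adjusted p = 0.0271), and limma-voom did so too (1.80, adjusted p = 0.00437). The averaged value stayed between 0.87 and 1.52 in all alternatives run, but its call did not always hold. It was 0.96 (edgeR adjusted p = 0.0759) without IR day 3 replicate 6 and DR day 3 replicates 1, 2 and 3, and 0.87 (edgeR adjusted p = 0.214) when IR day 3 replicates 3 and 4 were left out as well. Replicates 3 and 4 had the highest nasal and salivary gland sums, 91100 and 148000 CPM. Day 7 libraries with sums up to 51600 CPM stayed in. Both fits left out day 3 libraries only, so fewer remained to carry a call. Without IR day 7 replicate 3, which had the highest Phex of all replanted libraries, the averaged value was 1.13 (edgeR adjusted p = 0.0528). With the replicate number as a block over the 4 groups it was 1.38 (edgeR adjusted p = 0.0535), though same-numbered libraries did not deviate together across days.

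Phex was the member that set NT apart. NT held 7.01 times the mean level of IR day 3, 13.1 times that of DR day 3, 3.76 times that of IR day 7 and 4.14 times that of DR day 7. It was the only 1 of the 6 detected members for which NT exceeded all 24 replanted libraries, which held for 9.44% of the genes tested. The genes tested passed a filter on the 24 replanted libraries alone. Genes seen mainly in NT, such as Dspp, are therefore missing from this share. NT is 1 library, so none of these ratios has a test. Ribosomal RNA took 2.91% of the counts in NT and 9.73% to 33.8% in the replanted libraries, and its part in the ratios was not tested. Beside them stand the odontoblast and pulp markers given above and Bglap, which was 12200 CPM in NT against group means of 482 to 1790 CPM; their part in the Phex ratios was not tested.

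Dmp1, the acidic phosphoprotein that nucleates mineral around osteocytes, stood at 652 CPM in NT. It ran from 4.92 through a median of 321 to 962 CPM in IR day 3 and from 12 through 270 to 498 CPM in DR day 3. At day 7 it ran from 314 through 405 to 792 CPM in IR and from 375 through 471 to 560 CPM in DR. All the replanted groups overlapped, and the day 7 groups were narrow next to those of day 3. The highest and lowest libraries of IR day 3, replicates 2 and 6, differed 195-fold, while those of DR day 7 differed 1.49-fold. The averaged time effect was 0.59 on the log2 scale (SE 0.483, interval -0.41 to 1.59, edgeR adjusted p = 0.39). It was -0.036 without the 6 day 3 libraries named above, and 1.07 with limma-voom and library weights (adjusted p = 0.0158).

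Mepe, whose protein carries the mineral-binding ASARM peptide, stood at 73.3 CPM in NT. It ran from 0.197 through 43.9 to 298 CPM in IR day 3, from 4.95 through 35.5 to 140 CPM in DR day 3, from 36 through 66.6 to 99 CPM in IR day 7 and from 56.7 through 63.7 to 87.5 CPM in DR day 7. Its 2 highest values, 298 and 242 CPM, were those of IR day 3 replicates 1 and 2, and its lowest, a single read, was that of replicate 6 of the same group. IR day 3 therefore had the highest mean, 110 CPM, but a median below both day 7 groups. The averaged time effect was -0.12 (SE 0.559, interval -1.28 to 1.04, edgeR adjusted p = 0.896), whereas limma-voom with library weights called it with the opposite sign (0.91, adjusted p = 0.0444).

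The libraries of a group lay closer together at day 7 than at day 3 for all 6 genes. Pooled within groups, the SD of log2 CPM at day 7 was 0.413 for Dmp1, 0.511 for Phex, 0.432 for Mepe, 0.601 for Pdpn, 0.519 for Ptprz1 and 0.672 for Irx5. At day 3 it was 2.36 for Dmp1, 1.67 for Phex, 2.66 for Mepe, 1.7 for Pdpn, 1.33 for Ptprz1 and 0.805 for Irx5. The median over all tested genes was 0.718 at day 3 and 0.439 at day 7. This is a description with no test, and the lipid-gland sums given above also had their widest ranges at day 3.

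**Figure D2:**
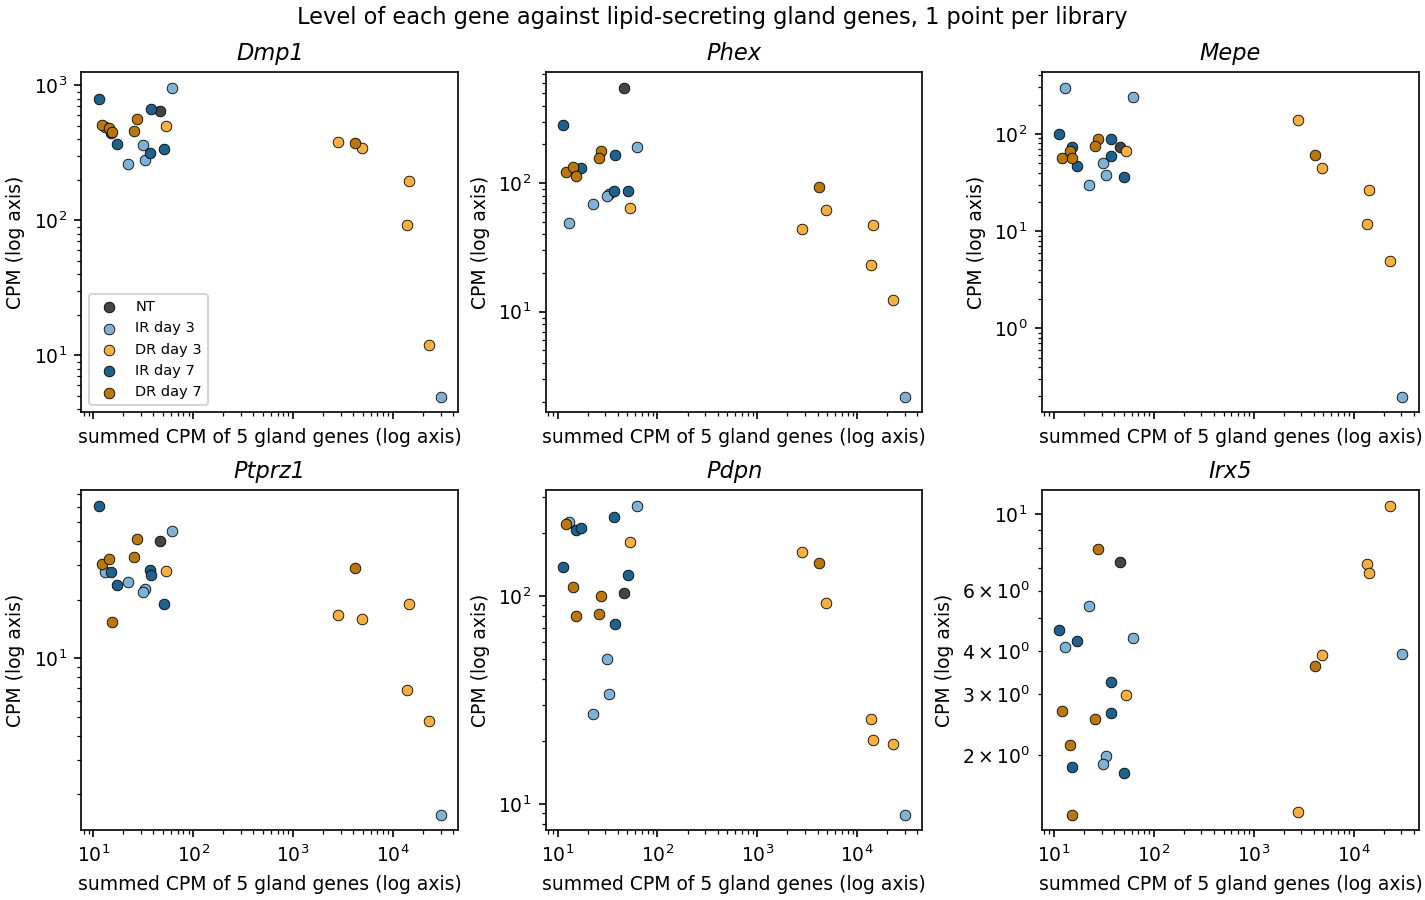
Level of each detected gene (CPM, log axis) against the summed CPM of 5 lipid-secreting gland genes (log axis), 1 point per library, coloured by group. The library with the highest gland sum, 30300 CPM in IR day 3, has the lowest Dmp1, Phex, Mepe, Ptprz1 and Pdpn, while Irx5 shows no such low value there.

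The libraries with the highest gland sums were those with the least Dmp1. The gland sum was 30300 CPM in IR day 3 replicate 6, where Dmp1 was 4.92 CPM, and 23000 CPM in DR day 3 replicate 3, where Dmp1 was 12 CPM. DR day 3 replicates 1 and 2 had sums of 13700 and 14400 CPM with Dmp1 at 92 and 195 CPM. Exceptions existed at lower sums, since DR day 7 replicate 5 had 4130 CPM of gland genes beside 375 CPM of Dmp1, the lowest of its group but within the range of IR day 7. Of the 5 gland genes Awat2 was at 0 in NT and in both day 3 groups. The part of gland tissue in the low values of the members was not tested.

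Ratios between members within a library do not depend on how much of the library came from other tissue, as long as that tissue lacks the genes. The ratio of Dmp1 to Phex counts was 1.18 in NT and higher in 23 of 24 replanted libraries. It ran from 2.27 to 10.1 in IR day 3 (median 4.17), from 0.973 to 8.79 in DR day 3 (median 4.84), from 2.78 to 3.99 in IR day 7 (median 3.57) and from 2.9 to 4.1 in DR day 7 (median 3.81). The exception below NT was DR day 3 replicate 3. The ratio of Phex to Ptprz1 was 13.8 in NT and between 1.38 and 7.38 in the 24 replanted libraries. Phex to Pdpn, at 5.33 in NT, was likewise lower in all 24, though lymphatic endothelium and fibroblasts also make Pdpn. Phex to Mepe, at 7.53 in NT, was lower in all but IR day 3 replicate 6, which had 1 Mepe read. Dmp1 to Mepe, by contrast, was 8.89 in NT and lay on both sides of it in the others. It ran from 1.64 to 25, the highest in that same library, with group medians of 7.31, 7.39, 7.64 and 6.82. Dmp1 to Ptprz1 was 16.3 in NT and ran from 2.52 to 29.4 in the 24 replanted libraries, 10 of them above NT. Its group medians lay between 14.4 and 15.7. Phex to Bglap went the other way, at 0.0454 in NT and between 0.0558 and 0.194 in the replanted libraries.

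**Figure D3:**
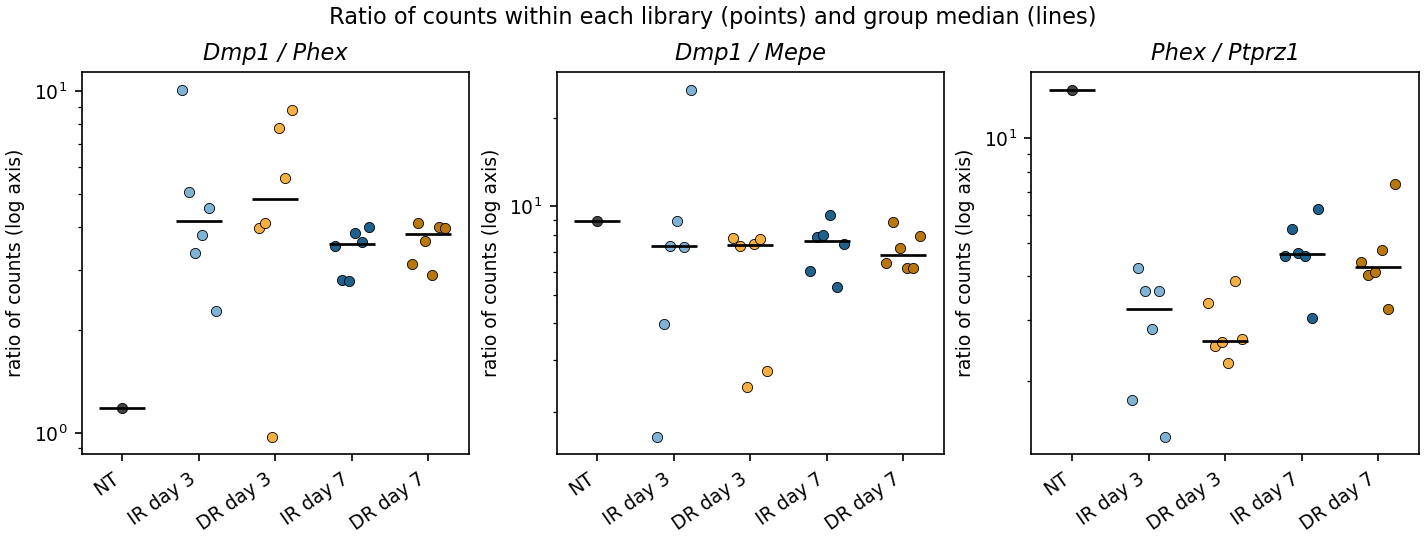
Ratio of counts within each library (log axis) by group for Dmp1 to Phex, Dmp1 to Mepe and Phex to Ptprz1, with points for libraries and lines for group medians. NT stands below 23 of 24 replanted libraries in the first panel and above all of them in the last, and inside their range in the middle panel.

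Sost and Fgf23, the secreted products of mature osteocytes, had 0 counts in all 25 libraries. A count of 0 allows up to 3 counts, which is 0.737 CPM in the library of smallest effective size, 0.317 CPM in that of largest effective size and 0.0173 CPM over the summed effective size of 173 M; these limits cover counting error only. No fold change can be given for either gene. Both were thus without a count in NT and in every replanted library, among 1668 of the 16881 gene symbols at 0 throughout. The part of depth in these zeros was not tested, and whether the annotation used covers their 3′ ends was not examined. The name osteocyte rests here on Dmp1, Phex and Mepe, which odontoblasts, osteoblasts or cementum cells can also express. Kl and Cyp24a1, the FGF23 co-receptor and an FGF23-induced vitamin D hydroxylase, were at 0 in every library as well.

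Pdpn, the mucin-type glycoprotein of embedding osteocytes that is also made by lymphatic endothelium and fibroblasts, stood at 103 CPM in NT. It ran from 8.86 through 41.9 to 272 CPM in IR day 3, from 19.5 through 58.9 to 182 CPM in DR day 3, from 73.3 through 173 to 240 CPM in IR day 7 and from 79.8 through 105 to 223 CPM in DR day 7. At day 3 both groups held separate high and low libraries. IR day 3 replicates 1 and 2 had 226 and 272 CPM and the other 4 at most 49.8, and DR day 3 replicates 4, 5 and 6 had 92.1 to 182 CPM and the other 3 at most 25.7. NT lay below 5 of the 6 IR day 7 libraries, the reverse of its place for Phex. The averaged time effect was 0.61 (SE 0.473, interval -0.37 to 1.59, edgeR adjusted p = 0.368); limma-voom with library weights gave 1.74 (adjusted p = 0.000226) and the fit without the 6 day 3 libraries gave -0.18. Several marker sums of other cells also had their low values at day 3, but not all did. The Schwann and glia sum was lowest in DR day 7, at 53.2 CPM. The nasal and salivary gland, olfactory, ciliated and lipid-gland sums were lowest in IR day 7, at 219, 17.8, 14.9 and 11.3 CPM. The sum of 5 macrophage genes, the list closest to Pdpn (r 0.97 over 24 libraries, as a description), had day 3 minima of 34 CPM (IR) and 70.1 CPM (DR) and day 7 minima of 254 CPM (IR) and 271 CPM (DR), with overlapping ranges, while lymphatic markers followed Pdpn less closely (r 0.481). Periodontal ligament, blood endothelial and osteoclast sums gave r of 0.95, 0.948 and 0.935, and the part of any of these cells in Pdpn was not tested.

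Ptprz1, the pleiotrophin receptor, stood at 40 CPM in NT. It ran from 1.57 through 23.7 to 44.9 CPM in IR day 3, from 4.78 through 16.2 to 28.2 CPM in DR day 3, from 19.1 through 27.1 to 60.8 CPM in IR day 7 and from 15.3 through 31.3 to 40.8 CPM in DR day 7. All replanted groups overlapped. Its time effect in DR was 1.01 (SE 0.478, edgeR adjusted p = 0.212), and 0.61 without the 4 libraries of highest lipid-gland sum. With limma-voom and library weights it was called in DR (1.27, adjusted p = 0.019) and in the averaged contrast (0.78, adjusted p = 0.0137). Besides Phex it was the only member with an unadjusted p under 0.05 in any contrast. In the DR time contrast, where both passed that mark, so did 2589 of the 11492 genes tested, and this does not set Ptprz1 apart.

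Irx5, the homeobox factor, was near the limit of what this depth resolves, with 8 to 64 counts in a replanted library and 61 in NT. NT had 7.25 CPM, IR day 3 ran from 1.88 through 4.03 to 5.41 CPM, DR day 3 from 1.37 through 5.32 to 10.6, IR day 7 from 1.77 through 2.95 to 4.6 and DR day 7 from 1.34 through 2.61 to 7.95. NT was above every IR library and within the range of both DR groups. The share of all genes with NT above every IR library was not computed, so this does not set Irx5 apart. Its highest value was in DR day 3 replicate 3, one of the lowest libraries for the other 5 genes, and the averaged time effect was -0.47 (SE 0.326, edgeR adjusted p = 0.305).

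Drying time was not associated with a call for any of these genes. For DR against IR, edgeR's quasi-likelihood test called 0% of all genes at day 3, at day 7 and for the interaction; at an unadjusted p under 0.05 there were 313, 206 and 346 genes, none of them a member. The day 3 count of 0 became 576 genes without IR day 3 replicate 6 and 1190 with limma-voom, again with no member called. At day 3 the differences were -0.66 for Dmp1 (interval -2.07 to 0.76), -0.94 for Phex (-2.07 to 0.20), -1.19 for Mepe (-2.85 to 0.47), -0.68 for Ptprz1 (-1.67 to 0.31) and -0.31 for Pdpn (-1.69 to 1.07). Irx5 was at 0.58 (-0.37 to 1.53). Signs of the last 2 turned without the 4 libraries of highest lipid-gland sum, to 0.25 for Pdpn and -0.37 for Irx5. Intervals of that width do not exclude a 2-fold difference at day 3. At day 7 the differences were nearer 0 for each tested member but Pdpn, at 0.002 for Dmp1 (-1.41 to 1.41), -0.093 for Phex (-1.21 to 1.03), 0.044 for Mepe (-1.59 to 1.68), 0.002 for Ptprz1 (-0.97 to 0.98), -0.39 for Pdpn (-1.77 to 0.99) and 0.17 for Irx5 (-0.78 to 1.13). These comparisons share their groups with the time effects above. Their intervals come from the main fit, which has 1 spread per gene for all 4 replanted groups. The SD of log2 CPM within groups was lower at day 7 for each tested member. It was 2.36 at day 3 and 0.413 at day 7 for Dmp1, 2.66 and 0.432 for Mepe, but 0.805 and 0.672 for Irx5. The day 7 intervals thus carry day 3 spread and may be too wide, and those of day 3 may be too narrow.

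**Figure D4:**
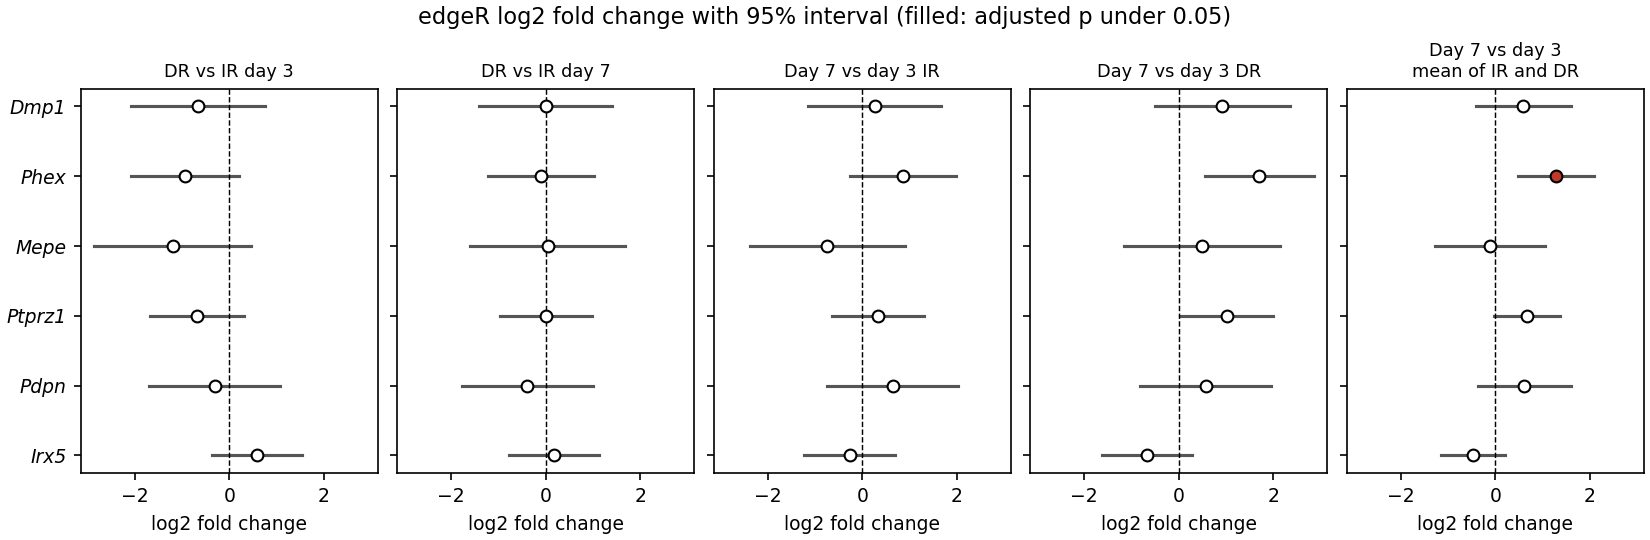
Log2 fold change of the 6 tested members with 95% intervals from edgeR in the 2 drying contrasts, the time contrast within each drying time and their mean; filled points have an adjusted p under 0.05. Only Phex in the averaged time contrast, at 1.28, is filled, and for every tested member but Pdpn the drying difference lies nearer 0 at day 7 than at day 3. The intervals rest on a spread per gene shared by both days.

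Against NT, with 5 CPM added to both sides and a change past 2-fold taken as the mark, Phex passed in IR day 3 (log2 ratio 2.73), where 5.07% of genes were past 2-fold with NT higher. In DR day 3 Phex (3.56), Dmp1 (1.34) and Ptprz1 (1.16) passed, against 6.29% of genes. At day 7 Phex alone passed, at 1.87 in IR (2.78% of genes) and 2.01 in DR (3.79% of genes). Mepe and Pdpn passed in no group with all libraries in. The mark depended on 1 library in IR day 3, since Dmp1 also passed (1.21) without replicate 2, on 1 library in DR day 3, since Mepe also passed (1.12) without replicate 6, and on the CPM added in IR day 7, since Irx5 passed (1.02) with 1 CPM added. The medians over all tested genes lay between -0.085 and -0.025. These shares and medians cover genes that passed a filter on the replanted libraries alone, so genes seen mainly in NT are missing from them.

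Across the 24 replanted libraries the genes whose log2 CPM followed each member most closely were ranked by Pearson's r, with Spearman's rho beside it. These values take in differences between groups as well as the day 3 libraries in which all the detected members but Irx5 were low, and are a description. For Dmp1 they were Slc8a3 (r 0.977, rho 0.897), Serpine2 (0.974, 0.862) and Pcdhga11 (0.972, 0.803). For Phex they were Cpz (0.967, 0.883), Bglap (0.966, 0.934) and Col13a1 (0.966, 0.904), of which Bglap is a bone matrix gene and Col13a1 a transmembrane collagen. For Mepe they were P4ha2 (0.962, 0.785), a collagen prolyl hydroxylase, with Epdr1 (0.955, 0.767) and Armcx3 (0.951, 0.859), and for Ptprz1 they were Zfhx4 (0.962, 0.817), Mme (0.957, 0.836) and again Slc8a3 (0.955, 0.843). Pdpn was followed by Rftn1 (0.972, 0.927), Il4r (0.971, 0.948) and Lama4 (0.967, 0.916). Irx5 had no close companion, its highest r being 0.705 with Prpf18.

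The other genes of the phosphoprotein cluster on chromosome 14, ordered Spp1, Mepe, Ibsp, Dmp1 and Dspp, did not share 1 pattern. Ibsp, bone sialoprotein, was 3890 CPM in NT with group means of 2610, 2100, 3960 and 3810 CPM, and Spp1, osteopontin, was 2370 CPM in NT with group means of 1710, 1820, 3170 and 3090 CPM, in the order IR day 3, DR day 3, IR day 7, DR day 7. Dmp1 was 0.167 of Ibsp in NT and had group medians of 0.245, 0.169, 0.109 and 0.124 of it. The averaged time effects were 0.81 for Spp1 (edgeR adjusted p = 0.265) and 0.72 for Ibsp (edgeR adjusted p = 0.407). Dspp had a mean of 9.67 CPM in DR day 3, with libraries from 0 to 37.6 CPM, and at most 2.91 CPM in any library of the other replanted groups. It did not pass the filter on low counts and was not tested.

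**Figure D5:**
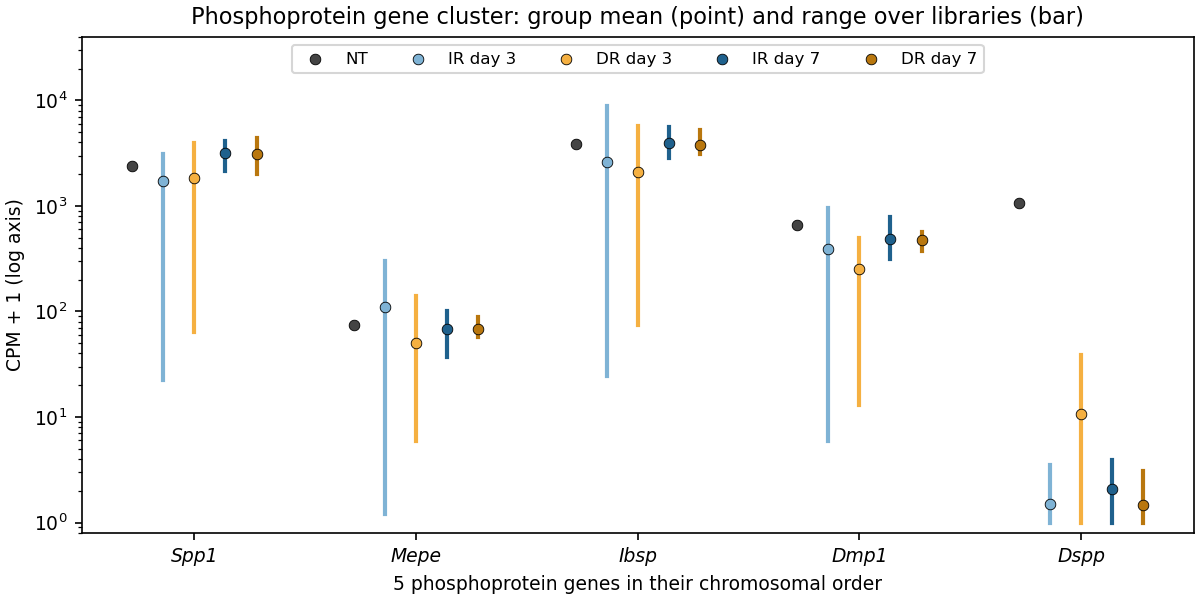
Mean CPM plus 1 (log axis) of the 5 phosphoprotein genes in their order on the chromosome for NT and each replanted group, with bars over the lowest to highest library. Dspp alone separates NT, at 1070 CPM, from the replanted libraries, at 0 to 37.6 CPM, while NT lies within the replanted range for Spp1, Mepe, Ibsp and Dmp1.

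In the averaged time contrast, where the median over all tested genes was -0.059, osteoblast and mineralization genes had positive values throughout. All 12 tested were positive with a median of 0.89, and 6 rose in edgeR's test, where 6.94% of all genes were called higher. Col1a2 rose by 1.59 (adjusted p = 0.0131), Smpd3, a sphingomyelinase needed for mineralization, by 0.91 (0.0194), Col1a1 by 1.54 (0.0279) and Bglap by 1.38 (0.0315). The count of calls was 3 without the 4 libraries of highest lipid-gland sum, where 1.48% of genes were called, and 1 without the 6 day 3 libraries, where 0.431% were. Of 10 other osteocyte-enriched genes tested, 8 were positive with a median of 0.76 and none was called, the smallest p-values being those of Wnt16 (1.27, edgeR adjusted p = 0.0671) and osteomodulin, Omd (0.75, edgeR adjusted p = 0.0705).

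Genes of the FGF23 axis and of phosphate and vitamin D handling did not move as 1 group. Of 17 tested, 10 were positive and 7 negative with a median of 0.13, and 2 were called, a share no higher than the 18.8% of all genes. Phospho1, a phosphatase of matrix vesicles, rose by 0.82 (edgeR adjusted p = 0.0408) and is also counted in the osteoblast and mineralization list above. Galnt3, which glycosylates FGF23, had a change of -0.80 (edgeR adjusted p = 0.0341), a call that was lost when libraries were scaled by total counts alone. No gene of this list was called without the 4 libraries of highest lipid-gland sum, and the median was then -0.25. Of 14 genes of the Wnt pathway that sclerostin acts on, 10 were positive and 4 negative, and 3 were called, near the share of all genes. Dkk3 rose by 1.13 (edgeR adjusted p = 0.0308), while the co-receptors Lrp6 and Lrp5 changed by -0.90 (edgeR adjusted p = 0.00653) and -0.72 (edgeR adjusted p = 0.0428), and none of the 3 calls was made without those 4 libraries.

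Of the Iroquois family, the relatives of Irx5, all 4 tested were negative, with Irx1 at -4.22 (edgeR adjusted p = 0.0133) and Irx2 at -3.44 (edgeR adjusted p = 0.0154) called. In this averaged time contrast 18.8% of all genes were called in either direction. Irx1 reached 441 CPM in IR day 3 and 326 CPM in DR day 3 against at most 4.12 CPM in IR day 7, 76 CPM in DR day 7 and 2.26 CPM in NT, and no Irx5 value passed 10.6 CPM. Without the 4 libraries of highest lipid-gland sum neither was called, 2 of the 4 genes were positive and the median was -0.30. The 4 lipid-gland genes tested were all called lower at day 7, with a median of -5.97. None of them was called without those libraries, but the libraries are the ones highest in these same genes, so that result decides nothing. The part of gland tissue in the Irx1 and Irx2 values was not tested. Among the Ptprz1 ligands and partners none of 5 was called, with midkine (Mdk) at 0.42 (edgeR adjusted p = 0.3) and pleiotrophin (Ptn) at 0.41 (edgeR adjusted p = 0.349). Of 7 podoplanin partners 1 was called, radixin (Rdx) at -0.52 (edgeR adjusted p = 0.0205), also lost with total-count scaling. No gene of any of these lists was called for drying at either day.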

How the data were processed

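The authors deposited 1 table of raw counts per library, with whole numbers per gene symbol. Libraries were made from 500 ng of Trizol-extracted RNA with Lexogen's QuantSeq kit, per the labels' protocols, which reads a short stretch at the 3′ end of polyadenylated transcripts. The submitters' processing notes name Bowtie2, edgeR and the builds mm10 and rn6, without roles. The counter and its strand setting were not given in the sources used here, so reads from overlapping or antisense genes cannot be told apart. No column of another series was used (0). For symbols with more than 1 entry, the entry with the highest total was kept.

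The 24 replanted libraries entered 1 quasi-likelihood model in edgeR 4.0.16 (R 4.3.3) with a mean per group (TMM scaling, robust fit, 20 residual degrees of freedom); the filter filterByExpr left 11492 genes. The labels name no batch. Calls are at an adjusted p (Benjamini-Hochberg) under 0.05. Fold changes are on the log2 scale, and CPM and log2 CPM (prior count 2) use TMM over all 25 libraries. NT, 1 library, entered no test; its log2 ratios have 5 CPM added. Depth ran from 5.04 to 8.81 M counts per library, and no molecular identifiers are described, so limits at 0 cover counting error only. Alternatives were RLE and total-count scaling, no filter, DESeq2 1.42.0, limma-voom (limma 3.58.1) with library weights, 2-group fits, replicate blocks, other added CPM, and libraries left out. The fit was tested on simulated data.

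The 8 genes, the context lists and the libraries left out together were chosen with earlier results of these data known. Named genes were all 8 members, per context list the 4 called genes of smallest p at most, or the 2 of smallest p where none was called, and the 3 closest genes per member by Pearson's r. Same-numbered libraries of IR and DR deviated together in all 6 pairs at day 7 but not at day 3 or across days. The correlation of deviations from group means was 0.217 to 0.721 at day 7. No label says what a number marks. Blocks on the number were run only as alternatives, over the 4 groups, within day and on day 7 libraries alone. The main fit holds no block, so its day 7 intervals for drying do not use the pairing seen at day 7. A fit of day 7 libraries alone with the block gave 0.009 (SE 0.258) for Phex, against -0.093 (SE 0.541) in the main fit. That fit also leaves out the wider spread of day 3, so its smaller SE cannot be put down to the block alone.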

Additional observations from a re-analysis of the deposited data

Results flagged for a closer look

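In 6 of the 24 sets of 6 libraries examined, the highest or lowest value stood apart from the other 5 by the gap relative to the range of the set. For a single set of normal values chance gives about 1 in 20. The 24 sets are not independent, since they are 6 genes measured in the same libraries, so the count cannot be set against that rate. IR day 3 replicate 6 was the lowest in 4 of the 6 sets that stood apart. There Dmp1 was 2.38 log2 CPM, or 4.92 CPM against 263 for the next library, and Phex was 1.29 log2 CPM, or 2.17 against 48.6 CPM. Mepe was -1.04 log2 CPM in the same library, or 0.197 against 29.5 CPM, and Ptprz1 was 0.90 log2 CPM, or 1.57 against 22 CPM. That library also had the highest lipid-gland sum, 30300 CPM, and the part of gland tissue in these values was not tested. The other 2 sets were both of Ptprz1, at day 7. DR day 7 replicate 6 was the lowest of its group at 3.97 log2 CPM, or 15.3 against 29 CPM. Mepe (56.7 CPM), Pdpn (79.8 CPM) and Irx5 (1.34 CPM) were also lowest in that library. Dmp1 and Phex were inside the range of the group there. IR day 7 replicate 3 was the highest at 5.93 log2 CPM, or 60.8 against 28.5 CPM, and it also had the highest Dmp1 and Phex of its group, 792 and 284 CPM.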

How the results depend on the processing

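For the averaged time contrast 1 member, Phex, was called by edgeR, DESeq2, both other scalings and the fit with no filter. No member (0) was called without the 4 day 3 libraries of highest lipid-gland sum (Phex 0.96), without 6 day 3 libraries (0.87), with the replicate number as a block over the 4 groups (1.38, adjusted p = 0.0535) or without IR day 7 replicate 3, and leaving out 1 library at a time gave 0 to 1 members. limma-voom with library weights called 5 members there (Dmp1 1.07, Pdpn 1.74, Ptprz1 0.78 and Mepe, reversed to 0.91, among them), 1 in IR (Pdpn 2.01, Mepe reversed to 0.51) and 4 in DR (Dmp1 1.58, Phex 1.80, Pdpn 1.47, Ptprz1 1.27), and DESeq2 called 1 in DR (Phex 1.72). Against NT, 2 members passed 2-fold in IR day 7 with 1 CPM added, and leaving out 1 library gave 1 to 2 in IR day 3 and 3 to 4 in DR day 3.

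Values near 0 changed sign. For DR against IR at day 7, Dmp1 and Ptprz1 were -0.015 and -0.014 with RLE scaling and with DESeq2, -0.042 and -0.043 with no filter (Mepe -0.005), and -0.041 and -0.056 with the replicate block over the 4 groups, while Phex was 0.068 with limma-voom and 0.009 with the replicate block on day 7 libraries alone, a fit chosen after seeing the data. Leaving out 1 library gave -0.10 to 0.19 for Dmp1, -0.21 to 0.20 for Phex, -0.081 to 0.19 for Mepe, -0.29 to 0.34 for Irx5 and -0.11 to 0.31 for Ptprz1. At day 3 Pdpn was 0.20 with limma-voom, 0.21 with the block and 0.25 without the 4 libraries (-0.73 to 0.27 leaving out 1), and Irx5 was -0.37 without the 4 and -0.32 without the 6. For the interaction Pdpn was 0.004 with total counts (-0.66 to 0.34 leaving out 1), and Irx5 was 0.55 without the 4 and 0.50 without the 6. For time in IR without the 6, Dmp1 was -0.33, Pdpn -0.15 and Ptprz1 -0.046. In DR, Mepe was -0.25, Pdpn -0.20 and Irx5 0.32 without the 4 and also without the 6. For the averaged contrast, Mepe was 0.034 with the block (-0.25 to 0.20 leaving out 1), Irx5 was 0.046 without the 4 and 0.067 without the 6, and Dmp1 and Pdpn were -0.036 and -0.18 without the 6. The cause of these changes was not tested.

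Counts over all genes moved more. The averaged contrast gave 2156 calls, and 1308 with total counts (which shift the median change by 0.11), 5479 with limma-voom, 1197 with the block, 176 without the 4 and 51 without the 6. In IR the 16 calls became 760 with DESeq2, 4394 with limma-voom, 81 without the 4, 1 without the 6 and 0 with total counts, 2-group fits or the block, and 0 to 402 leaving out 1 library. In DR the 1 call became 1069 with DESeq2, 3305 with limma-voom, 43 in the 2-group fit, 0 in most others and 0 to 369 leaving out 1. For drying at day 3, limma-voom gave 1190 and leaving out IR day 3 replicate 6 gave 576; at day 7 DESeq2 gave 3, and for the interaction DESeq2 gave 11 and limma-voom 522. The replicate block within day or on day 7 libraries alone called 0 members for drying and changed no call of a member. Sost and Fgf23 had no count in any library, for a reason that was not tested, and Irx5 rests on 8 to 64 counts per library.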
